A study of Drosophila melanogaster with 3 samples.

Results

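Start-near intronic peaks are regions enriched by immunoprecipitation of GFP-tagged CG4328. Their summit lay inside the body of a protein-coding gene and in no annotated exon of any gene. It was 501 to 2000 bp from the nearest annotated protein-coding transcription start. Of the 3688 peaks in the optimal list, 517 (14.02%) met this description, in 493 separate regions. The other peaks were 1960 promoter peaks (summit within 500 bp of a start), 657 distal intronic peaks (intron, beyond 2000 bp), 420 intergenic peaks and 134 exonic peaks. The nearest starts belonged to 434 genes, which is 3.11% of the 13945 protein-coding genes, and 482 of the 517 summits lay within the gene whose start was nearest.

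Chromatin immunoprecipitation with an anti-GFP antibody and sequencing (ChIP-seq) was applied to whole Drosophila melanogaster embryos of 8 to 24 h, males and females together, from the transgenic strain CG4328-GFP, in which a stable transgene carries CG4328 with GFP at its C-terminus. The 3 biological replicates form 1 group, so there was no other genotype or treatment to compare with, and no control library was analysed here. Whole embryos mix all tissues, so a site in a few cells and weak binding in many cells cannot be told apart. Read depth was unknown, and 95% Wilson intervals below cover only the number of peaks.

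CG4328 encodes a LIM-homeodomain protein, a class of transcription factor that pairs a DNA-binding homeodomain with LIM domains that bind partner proteins. Homeodomains of many factors recognise a short core rich in A and T. Introns close to a transcription start, and first introns above all, often hold enhancers in Drosophila, and a gene with several starts can have an intron of its longer transcripts directly upstream of a later start. CG4328 itself was nearest to 0 of the 517 summits, but it had only 1500 bp of start-near intronic sequence, so this says little.

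Sequence around the highest summits shows what these sites look like. The lines give the summit and 100 bp to each side, from the plus strand of the RefSeq release 6 genome (dm6), for the 4 highest summits and the 4 highest with the homeodomain core TAATTA, CG11050 being in both sets and sites on 1 chromosome arm being left out. Capitals mark TAATTA and the forkhead site TGTTTAC on either strand, because these are the motifs followed below. Each is named by the gene of the nearest start.
CG11050 (chr2L:6612606-6612806): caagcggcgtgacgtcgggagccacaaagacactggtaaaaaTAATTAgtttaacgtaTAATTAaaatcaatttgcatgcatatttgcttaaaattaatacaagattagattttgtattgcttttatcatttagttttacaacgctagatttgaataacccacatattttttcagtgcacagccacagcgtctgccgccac 
Trl (chr3L:14759404-14759604): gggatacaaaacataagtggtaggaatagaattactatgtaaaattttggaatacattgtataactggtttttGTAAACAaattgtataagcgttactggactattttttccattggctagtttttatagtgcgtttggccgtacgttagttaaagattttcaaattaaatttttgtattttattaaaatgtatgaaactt 
cbt (chr2L:480958-481158): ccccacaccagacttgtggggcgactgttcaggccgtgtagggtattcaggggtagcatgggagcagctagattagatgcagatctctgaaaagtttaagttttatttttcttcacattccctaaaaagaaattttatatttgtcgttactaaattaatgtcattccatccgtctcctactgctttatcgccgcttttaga 
CG9663 (chr2L:3302064-3302264): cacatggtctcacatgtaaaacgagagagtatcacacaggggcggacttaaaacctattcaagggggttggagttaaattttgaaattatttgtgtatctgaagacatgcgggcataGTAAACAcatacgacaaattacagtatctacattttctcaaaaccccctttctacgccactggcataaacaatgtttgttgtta 
norpA (chrX:4324886-4325086): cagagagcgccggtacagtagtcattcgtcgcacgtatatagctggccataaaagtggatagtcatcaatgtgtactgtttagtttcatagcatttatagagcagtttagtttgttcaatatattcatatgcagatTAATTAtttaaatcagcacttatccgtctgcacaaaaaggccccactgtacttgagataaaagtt 
NFAT (chrX:13640409-13640609): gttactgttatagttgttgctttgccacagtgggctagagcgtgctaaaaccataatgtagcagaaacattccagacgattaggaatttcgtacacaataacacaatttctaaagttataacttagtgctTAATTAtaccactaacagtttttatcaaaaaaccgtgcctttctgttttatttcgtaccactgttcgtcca 
CG9921 (chrX:16332896-16333096): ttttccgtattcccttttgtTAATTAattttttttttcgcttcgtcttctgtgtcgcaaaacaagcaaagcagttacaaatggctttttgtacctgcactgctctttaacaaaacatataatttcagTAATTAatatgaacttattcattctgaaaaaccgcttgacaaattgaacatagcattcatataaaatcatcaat

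The CG11050 sequence held 2 copies of TAATTA, both on the same side of the summit, and CG9921 also held 2. The Trl and CG9663 sequences each held 1 TGTTTAC, written in reverse as GTAAACA, and no TAATTA. The cbt sequence held neither. G+C content ranged from 26.87% at Trl to 41.29% at cbt.

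The highest start-near intronic peaks were strong in every library. The peak 1019 bp downstream of a start of CG11050 ranked 2 in the optimal list, with a deposited signal value of 3083.1, and its values in replicates 1, 2 and 3 were 1076.5, 1231.4 and 822.5. It was the highest or among the 3 highest peaks of each replicate's own list. The scale of the signal value is not stated, and its median over all optimal peaks was 74.22, 92.6 and 53.04 in the lists of replicates 1, 2 and 3. Replicates are therefore compared by rank, or by differences between peaks of 1 list.

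The next sites lay at genes of various functions. Trl, which encodes the GAGA factor, had a peak ranked 6, upstream of a later start of its own gene by 1542 bp, with values of 758.2, 877.7 and 588.6 in replicates 1, 2 and 3. The peak ranked 9 lay 1370 bp upstream of cbt, a zinc-finger factor gene, inside an intron of its neighbour ush, which encodes a cofactor of GATA factors. Its values were 622.4, 823 and 370.1, which placed it at ranks 10, 8 and 25 in the replicates' lists. HmgZ, a gene for an HMG-box chromatin protein, had the peak ranked 50, within introns of both HmgD and HmgZ, with values of 381.4, 437.5 and 296.5. Adf1, a MADF-domain transcription factor gene, had the peak ranked 81 and simj, which encodes a subunit of the NuRD remodelling complex, that ranked 82.

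Further sites lay as follows. Lk6, a kinase that acts on the translation factor eIF4E, had the peak ranked 17, with values of 452.9, 618.9 and 396.6 in replicates 1, 2 and 3. At for, the gene of a cGMP-dependent protein kinase, the values were 346.2, 437.4 and 235.5. These were ranks 19, 16 and 19 for Lk6, and 64, 57 and 98 for the kinase gene for. Tre1, a receptor gene of germ cell migration, had the peak ranked 84. At norpA, the phospholipase C gene of phototransduction, the values were 321.1, 318.5 and 304.7, at ranks 78, 144 and 48, so the peak stood higher in the list of replicate 3 than in those of replicates 1 and 2. NFAT, a gene of a transcription factor family that calcium signals control in mammals, ranked 114, and chif, the fly Dbf4 homologue needed for DNA replication, ranked 93.

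The other genes among the 15 highest were CG9663 (rank 11), CG32772 (rank 47) and CG4496 (rank 88). All 15 were found among the highest peaks of all 3 replicates, and the lowest place of any of them in any replicate was 218. Of the 15 summits, 8 lay upstream of the nearest start and 7 downstream, 4 were on chromosome X, and 4 had a promoter peak at the nearest start. Replicate 3 had the lowest of the 3 signal values at 14 of the 15 and replicate 2 the highest at 13, in the order of the lists' medians given above.

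**Figure D1:**
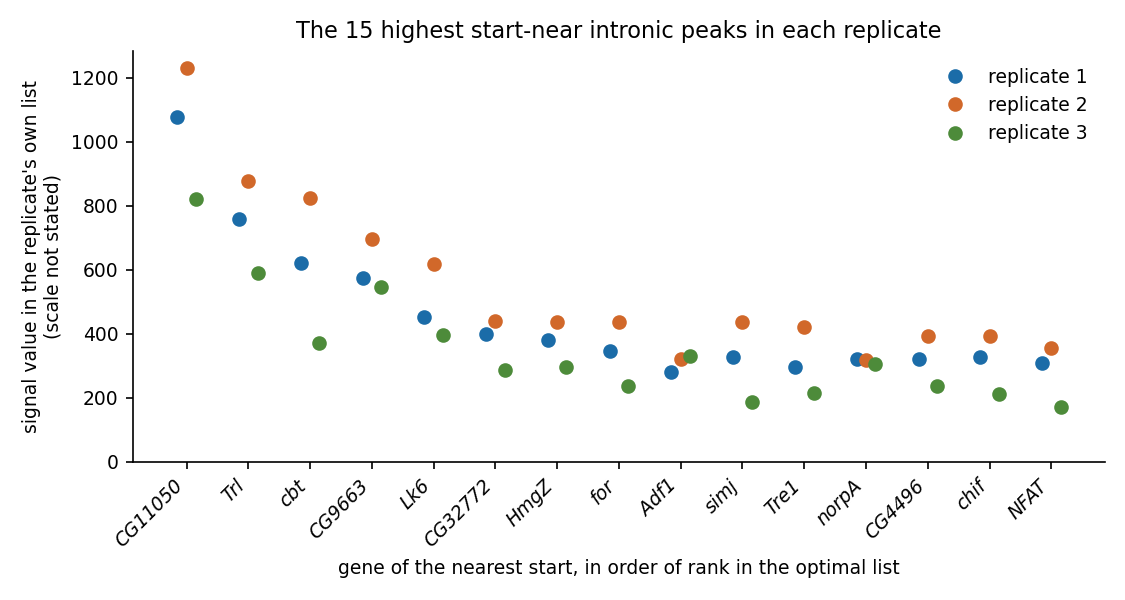
Signal value (vertical axis, scale not stated) of the 15 highest start-near intronic peaks in the own list of replicate 1, 2 and 3, 1 point per replicate, ordered by rank in the optimal list and named by the gene of the nearest start. CG11050 gave the highest point of each replicate, from 822.5 to 1231.4. Replicate 3 gave the lowest point at 14 of 15 peaks, and its median over all optimal peaks, 53.04, was also the lowest of the 3 lists.

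Over all 517 peaks the signal value ran from 131.3 to 3083.1 with a median of 197.4, and ranks from 2 to 3666 with a median of 1926. Among the 737 highest peaks of the optimal list were 107 of them (20.7%, 17.43 to 24.4%), close to the 19.98% of all optimal peaks. The share was 12.18% of distal intronic peaks (9.893 to 14.9%) and 23.67% of promoter peaks (21.84 to 25.61%). Width was 450 bp for 74.85% of them. The 125 narrower peaks had a median signal value of 430.7.

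Intronic sites became denser towards the start. The optimal list held 52.08 summits per Mb of start-near intron, 17.02 per Mb of distal intron and 127.8 per Mb of promoter sequence, a ratio of 3.06 between the intron classes. In the relaxed pooled list the same ratio was 1.825. Within the window, density went from 71.32 per Mb at 501 to 750 bp to 40.73 at 1751 to 2000 bp. Beyond it, density was 32.95 per Mb at 2001 to 3000 bp and 7.654 beyond 10000 bp. Density thus went on falling across the 2000 bp limit.

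Each replicate gave this density on its own. The 3688 highest peaks of replicates 1, 2 and 3, placed by their own summits, had 51.08, 51.58 and 51.18 summits per Mb of start-near intron. In distal introns they had 17.31, 16.95 and 20.39. All 3 start-near values lay above all 3 distal values, with means of 51.28 ± 0.2665 and 18.21 ± 1.894 (SD, n = 3). The difference of 33.06 ± 2.019 per Mb was larger than the spread between replicates, and the 2-sided exact sign-flip permutation test gave p = 0.25, the smallest that 3 libraries allow. Promoter sequence was denser still in each replicate, by 72.61 ± 8.542 per Mb (exact permutation p = 0.25). At 1751 to 2000 bp replicate 3 had 55.54 summits per Mb against 38.51 and 42.21 in replicates 1 and 2.

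**Figure D2:**
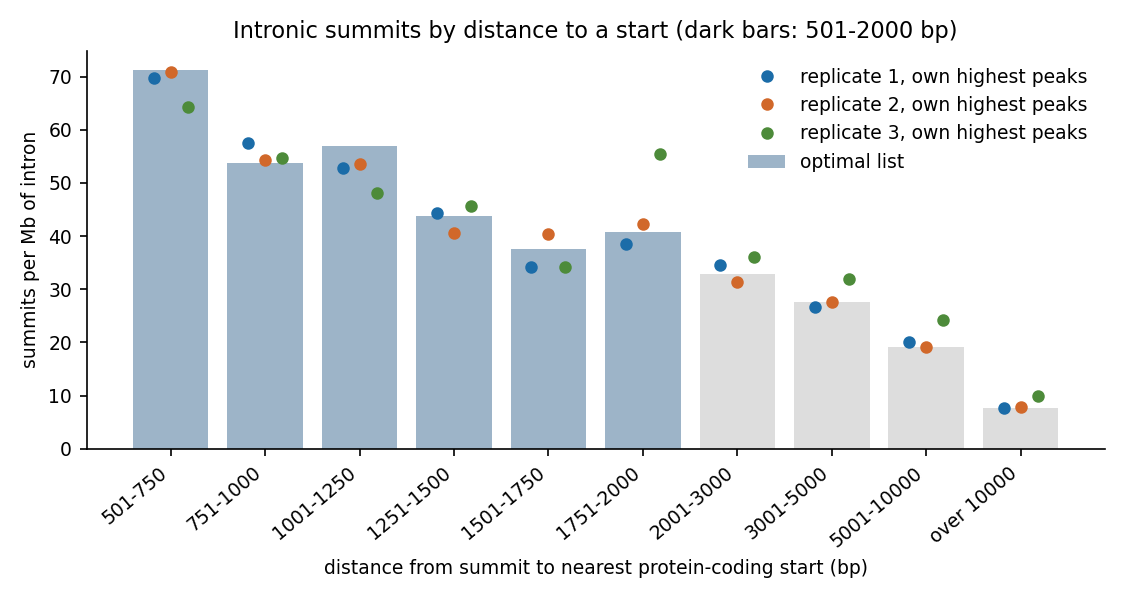
Summits per Mb of intron (vertical axis) by distance from the summit to the nearest protein-coding start (horizontal axis, bp), with bars for the optimal list and 1 point for the 3688 highest peaks of each replicate. Bars fall from 71.32 per Mb at 501 to 750 bp to 7.654 beyond 10000 bp, and the points of each replicate also end lowest beyond 10000 bp. Replicate 3 lies above the bar in every bin from 1751 bp outward (55.54 against 40.73 at 1751 to 2000 bp). Among the nearer bins it lies above the bar at 751 to 1000 and 1251 to 1500 bp and below it in the others.

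The relaxed pooled list holds weak peaks together with background. Its peaks in start-near introns overlapped an optimal peak more often than those in distal introns. Of 4171 relaxed pooled peaks in start-near introns, 689 (16.52%, 15.42 to 17.68%) overlapped an optimal peak, close to the 15.8% of all 30000. The share was 9.522% in distal introns (8.929 to 10.15%) and 28.96% at promoters (28.01 to 29.93%). Inside the window it went from 20.02% at 501 to 750 bp to 12.79% at 1751 to 2000 bp. The optimal list is the top of the pooled ranking, so the share says how high pooled peaks ranked.

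The members nearest to the distance limits were as follows. Inside the lower limit were CG3376 (507 bp, signal value 209.1) and ckn (509 bp, 212.8), and outside it Msp300 (500 bp, 484.5) and sdt (499 bp, 218.6). Inside the upper limit were pot (1992 bp, 541.8) and siz (1992 bp, 175.7), and outside it CG9171 (2001 bp, 137.6).

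First introns held most sites. A first intron of some transcript contained 444 of the 517 summits (85.88%), although first introns made up 66.43% of the start-near intronic sequence. That is 67.33 summits per Mb in first introns and 21.91 in other introns. In the replicates' own lists, first introns had 66.12, 67.03 and 67.33 summits per Mb and other introns 21.31, 21.01 and 19.21 in replicates 1, 2 and 3. The groups did not overlap, and the difference of 46.32 ± 1.677 per Mb (SD, n = 3) exceeded the replicate spread (exact permutation p = 0.25). The part of distance from the start in this difference was not tested.

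Sites lay on both sides of starts in proportion to the sequence there. Downstream of the nearest start were 352 summits (52.6 per Mb) and upstream 165 (51.01 per Mb). The upstream ones were mostly, in 134 cases, ahead of a later start of the gene that held them, and in 31 cases ahead of another gene, as at cbt within ush. The upstream peaks had a median signal value of 212.8 and the downstream ones 193.2.

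Replicate support differed between these sides. Support means overlap by at least 1 bp with one of the 3688 highest peaks of a replicate's own list. In replicates 1, 2 and 3, 87.27, 88.48 and 78.18% of upstream peaks were supported, against 81.53, 82.95 and 66.19% of downstream peaks. Upstream was higher in 3 of 3 replicates, by 7.753 ± 3.67 percentage points (SD, n = 3; exact permutation p = 0.25). All 3 replicates supported 66.06% of upstream peaks (58.54 to 72.85%) and 48.3% of downstream peaks (43.12 to 53.51%), with 56.2% over all optimal peaks. Missing from the whole list of replicate 3 were 10 upstream (6.061%) and 61 downstream peaks (17.33%). The median log2 signal was higher upstream too, by 0.26 ± 0.07 (SD, n = 3) over the peaks found, or 0.29 ± 0.11 with absent peaks placed lowest, and its part in the difference in support was not tested. This comparison was chosen after the values were seen.

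Over all start-near intronic peaks, support was close to that of the whole list. Replicate 1 supported 431 of 517 (83.37%, against 85.7% of all optimal peaks), replicate 2 438 (84.72% against 83.7%) and replicate 3 362 (70.02% against 72.4%). All 3 replicates supported 279 (53.97%, 49.66 to 58.22%), against 56.2% of all optimal peaks. A further 164 were supported by 2 replicates, 66 by 1 and 8 by none. Among all 3688 optimal peaks these counts were 1124, 455 and 37. Against distal intronic peaks, support differed by -3.088, 0.8535 and -5.171 percentage points in replicates 1, 2 and 3, a mean of -2.468 ± 3.06 (SD, n = 3), within the spread between replicates (exact permutation p = 0.5, adjusted p = 0.625 over 5 tests). Without replicate 2 the mean was -4.129, and without replicate 3 it was -1.117. Against promoter peaks the differences were -3.063, 0.842 and -2.226 points, a mean of -1.482 ± 2.056 (exact permutation p = 0.5, adjusted p = 0.625), also within that spread, with -0.6918 without replicate 1 and -2.644 without replicate 2.

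**Figure D3:**
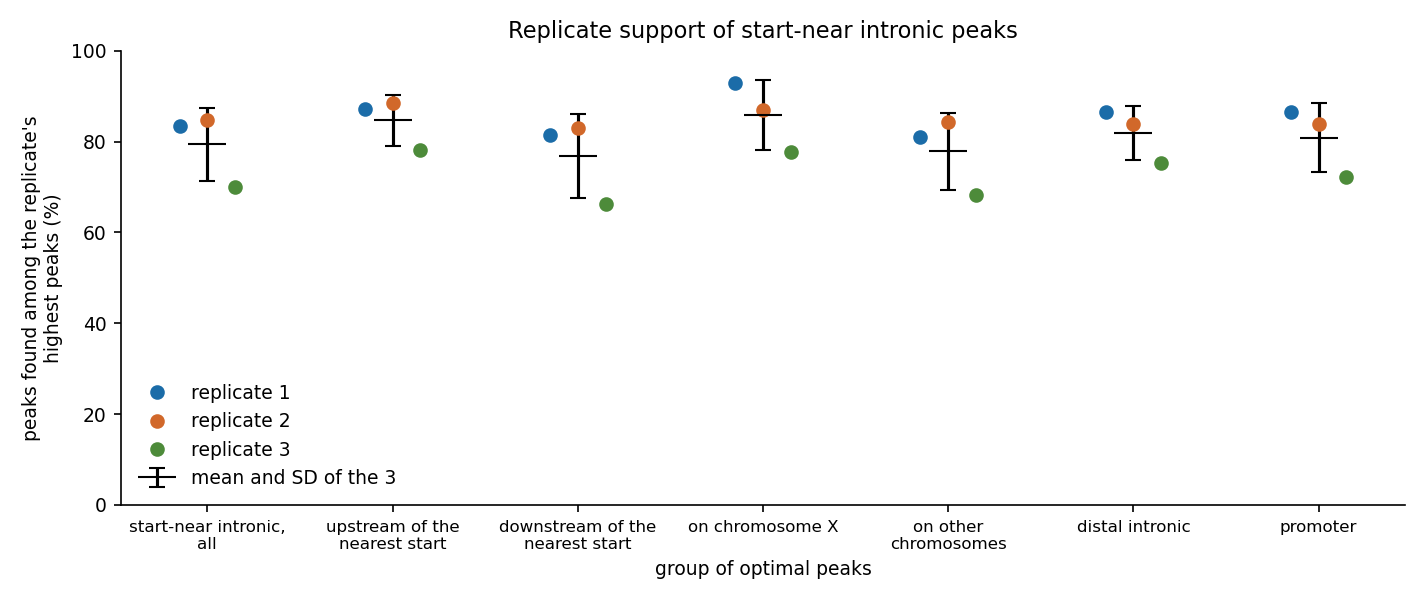
Percent of optimal peaks found among the highest peaks of each replicate (vertical axis), 1 point per replicate with the mean and SD of the 3 as a black mark and bars, for all start-near intronic peaks, their upstream, downstream, chromosome X and other members, and for distal intronic and promoter peaks. Replicate 3 is lowest in every group, from 66.19% for downstream peaks to 78.18% for upstream peaks.

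Signal in the replicates' own lists placed these sites slightly above distal intronic ones. The median log2 signal of start-near intronic peaks was 6.23, 6.56 and 5.59 in replicates 1, 2 and 3, and that of distal intronic peaks 6.10, 6.47 and 5.46, over the peaks found in each whole list. Start-near was higher in 3 of 3 replicates, by 0.12 ± 0.02 (SD, n = 3; exact permutation p = 0.25, adjusted p = 0.625). Against promoter peaks it was lower in 3 of 3, by a mean of -0.17 ± 0.22 (exact permutation p = 0.25, adjusted p = 0.625), with -0.42 in replicate 3 and -0.07 and -0.01 in replicates 1 and 2. Without replicate 3 the mean was -0.04. These medians leave out absent peaks, which in replicate 3 were 13.73% of start-near, 5.327% of distal and 17.24% of promoter peaks. With absent peaks placed below all others, the differences were 0.08 ± 0.05 from distal and -0.13 ± 0.15 from promoter peaks (SD, n = 3; exact permutation p = 0.25 for each), and 0.03 from distal peaks in replicate 3. Across these peaks, Spearman's rank correlation of signal value was 0.792 between replicates 1 and 2 (510 peaks), 0.6784 between 1 and 3 (446) and 0.6494 between 2 and 3 (440), all sharing the libraries from which the peaks were called.

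Most summits kept their position class in the separate libraries. The replicates' own summits kept 500 of 516, 491 of 511 and 425 of 446 overlapping peaks in the start-near intronic class. Of the 440 members found in all 3 whole lists, 411 kept the class in all 3. The median gap between the optimal and the replicate summit was 20, 11 and 31 bp in replicates 1, 2 and 3.

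Replicate 3 lacked the most sites. Its whole list of 30000 held no overlapping peak for 71 of the 517 (13.73%, 11.03 to 16.97%), against 1 in replicate 1 and 6 in replicate 2. The same share was 5.327% for distal intronic peaks (3.855 to 7.319%), 17.24% for promoter peaks (15.64 to 18.98%) and 13.58% for all optimal peaks. Among members present in all 3 whole lists, the 5 whose ranks differed most as a ratio were each lowest in replicate 3. A second Adf1 peak, 253 bp from the one ranked 81, ranked 410, 245 and 8307 in replicates 1, 2 and 3. Peaks at the forkhead gene jumu (1027, 756 and 18523), at SNF4Agamma, a subunit gene of the energy sensor AMPK (340, 509 and 8006), at the splicing regulator ps (1934, 1529 and 28267) and at CG4230 (1382, 650 and 10692) completed the 5. Members absent from a list had no rank there and were left out of this choice.

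Of the 8 members without support in any replicate, the 5 of highest signal value lay at ckn (rank 2598 in the optimal list), the zinc-finger gene cg (2712), the corepressor gene CtBP (3038), the carnitine palmitoyltransferase gene whd (3293) and the sodium pump gene Atpalpha (3379). The ckn peak ranked 3841, 4208 and 4044 in replicates 1, 2 and 3, each just below the 3688 that count as support. The CtBP peak was at rank 14882 in replicate 2 and absent from the lists of replicates 1 and 3.

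Peaks on chromosome X were stronger than the others. The 99 members there had a median signal value of 260.5, and the other chromosomes' 418 had 190.5. In replicates 1, 2 and 3 the median log2 signal was 6.55, 6.87 and 6.01 on X and 6.19, 6.51 and 5.51 elsewhere, a difference of 0.40 ± 0.08 (SD, n = 3; exact permutation p = 0.25), higher in 3 of 3. It was 0.41 ± 0.14 with absent peaks placed lowest. Support was higher on X by 8.028 ± 4.782 percentage points (exact permutation p = 0.25). Over all optimal peaks the median signal value on X was 210.9 and on the large autosome arms 195.5 to 209.9. Density did not stand out, with 50.1 members per Mb on X and 43.85 to 58.84 on the large autosome arms. The small chromosome 4 held 1 member. This comparison, too, was chosen after the values were seen.

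Start-near sites were denser beside starts that carried a promoter peak. Of the 517, 143 (27.66%, 23.98 to 31.67%) had another optimal summit within 500 bp of the same nearest start. When only the 1844 highest optimal peaks were used, the share of start-near intronic peaks was 17.41%. For distal intronic peaks of the whole optimal list it was 23.44% (20.36 to 26.83%). Starts with a promoter peak accounted for 12.89% of the start-near intronic sequence, giving 111.8 members per Mb there and 43.25 where the start had no peak. From the replicates' own lists the values were 104.6, 117.6 and 88.57 per Mb with a promoter peak, and 43.08, 41.25 and 46.22 without one. The difference was 60.08 ± 17.05 per Mb (SD, n = 3; exact permutation p = 0.25), positive in 3 of 3. Density also rises towards starts in general, and the part of distance in this difference was not tested.

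Counting any start of the nearest gene, 212 members (41.01%) belonged to a gene with a promoter peak. Support of these 212 differed from that of the other 305 by 4.21, 8.311 and -5.15 points in replicates 1, 2 and 3, a mean of 2.457 ± 6.9 (SD, n = 3), within the spread between replicates (exact permutation p = 0.75, adjusted p = 0.75). The median signal value was 195.4 with and 198.4 without a promoter peak at the nearest start.

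Some genes carried several sites. Of the 434 genes, 365 had 1 member, 61 had 2 and 8 had 3 or more. NFAT had 5 members at 707 to 1982 bp from its starts, with optimal ranks of 114, 819, 952, 1023 and 2612. The peak ranked 819 was absent from the list of replicate 2 and ranked 1370 and 339 in replicates 1 and 3. CG42258 had 5 members at 713 to 1097 bp in 3 separate sites.

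The other genes with 3 or more members were the following. The zinc-finger gene shn, whose product represses brk in the Dpp pathway, had 4 members with ranks 493, 690, 1390 and 1496, all supported by all 3 replicates. Tlk, the Tousled-like kinase gene, had 4, of which 1 was supported by all 3. HmgZ, the forkhead gene CHES-1-like, the chromatin gene tou and Stat92E, the transcription factor of the JAK/STAT pathway, had 3 each. Of these, HmgZ and CHES-1-like had all 3 members supported by all 3 replicates, and tou and Stat92E had 1. Neighbouring members can share 1 replicate peak, as 2 of the CG42258 members did at ranks 259, 348 and 446, so their support is not independent. In all, 71 members had another optimal summit within 500 bp.

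Gene lists were compared by the density of members in the start-near intronic sequence of their genes, beside 52.08 per Mb over all genes and 3.11% of genes with a member. Factors with a BTB domain and zinc fingers, many of them regulators of chromatin or of stage-specific genes, had members at 6 of 17 genes: Trl, psq, fru, ken, lola and mod(mdg4). Their density was 125.8 per Mb. The psq peak ranked 683, 663 and 1206 and the fru peak 1154, 1097 and 1030 in replicates 1, 2 and 3. The 9 members of this list had a median optimal rank of 2532, lower in the list than the 1926 of all members. All 3 replicates supported 4 of the 9.

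Factors with a basic helix-loop-helix domain had members at 6 of 43 genes, at 143.5 per Mb. The peak at gce, a juvenile hormone receptor gene, ranked 122, 148 and 93 in replicates 1, 2 and 3, and that at SREBP, the lipid synthesis regulator, 383, 190 and 372. At crp the ranks were 950, 1384 and 4819, so replicate 3 was the lowest. The others were Mitf, sim and trh. All 3 replicates supported 4 of the 7 members of this list.

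In the Dpp and activin pathway 4 of 23 genes had members, at 139 per Mb, and all 7 of these members were supported by all 3 replicates. Of the 7, 4 lay at shn in 3 separate sites. The shn members at optimal ranks 1390 and 1496 shared the replicate peaks ranked 1435, 945 and 2400, so their support is not independent. The genes were brk, a repressor of Dpp targets (ranks 333, 334 and 275), shn, Mad, the signal-transducing Smad (1067, 807 and 676), and magu, which encodes a secreted regulator of the gradient. The brk peak lay 640 bp upstream of brk, inside an intron of another gene, CG1677. In the insulin and TOR pathway 5 of 28 genes had members, at 138.7 per Mb. These were InR, the insulin receptor gene (130, 206 and 246), ImpL2, which encodes an insulin-binding antagonist (182, 164 and 326), Pdk1, Akt and REPTOR. The Pdk1 peak ranked 3185 and 2917 in replicates 1 and 2 and was absent from replicate 3. All 3 replicates supported 2 of the 5 members of the insulin and TOR list.

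Polycomb and trithorax group genes had members at 4 of 34, at 162.6 per Mb: Trl, ph-p (ranks 283, 301 and 371), fs(1)h, a BET-family gene (854 and 1257, absent from replicate 3), and osa. All 3 replicates supported 3 of their 5 members. In the EGF receptor and Ras pathway 3 of 26 genes had members, at 88.49 per Mb: the antagonist sty (413, 353 and 342), the kinase Raf (394, 515 and 808) and edl (406, 649 and 718). RNA-binding protein genes had members at 7 of 37 (18.92%), yet their density of 52.85 per Mb was close to that of all genes, as their start-near introns covered 151.4 kb. They included brat (240, 259 and 430) and the neuronal gene elav (576, 978 and 628).

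The remaining lists had few members on either side of the value for all genes. Homeobox genes, the class of CG4328, had members at 3 of 62 genes, at 37.64 per Mb: zfh1 (ranks 527, 599 and 456), Abd-B (510, 823 and 842) and Ptx1. Nuclear receptor genes had 2 of 21 (EcR and Hr4, 39.84 per Mb) and muscle structure genes 2 of 31 (Msp300, with ranks 158, 172 and 180, and Zasp66, 32.99 per Mb). Circadian clock genes had 2 of 10 (dco and vri, 90.07 per Mb), and 0 of these 2 members were supported by all 3 replicates.

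Neural lists and some pathway lists had low densities. Axon guidance and adhesion genes had a member at 1 of 43 (Ten-a, 11.14 per Mb), synapse and ion channel genes at 1 of 39 (Syx1A, 13.11 per Mb), and the Wingless and Hedgehog pathways at 1 of 34 (sgg, 20.74 per Mb). Single genes also stood for Hippo signalling and cell death (Diap1, 90.51 per Mb), ecdysone-induced factors (ken, 31.18 per Mb) and heat shock genes and chaperones (Hsp83, 179.2 per Mb from 1 member in 5.58 kb). The Hsp83 peak was absent from the list of replicate 3. Notch pathway genes had 0 of 19 in 25.26 kb of start-near intron, although 10 of them were nearest to an optimal peak of some class. Cytoplasmic ribosomal protein genes had 0 of 92 in 17.14 kb of start-near intron, while 69 of them were nearest to an optimal peak elsewhere. Over all protein-coding genes, 2559 of 13945 were nearest to an optimal peak of some class. Several lists rest on few kb and few members, so the values of 0 for Notch and ribosomal protein genes say little. Trl and ken are in more than 1 list, and no list was tested.

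Summits lay in short stretches low in G and C. Mean G+C content was 35.11% at the summit, 41.77% at 500 bp upstream on the plus strand and 41.76% at 1000 bp. The dip was confined to about 100 bp on each side in this profile, with 42.77% at 200 bp. Over windows of 100 bp to each side, the median was 37.31% at summits and 41.79% in flanks centred 500 bp away. Distal intronic summits had 37.81% and start-near summits that were in the relaxed pooled list only had 40.3%. In the replicates' own start-near intronic summits the median was lower than in flanks in each of replicates 1, 2 and 3, with differences of -4.478, -3.98 and -4.478 percentage points (mean -4.312 ± 0.2872, SD, n = 3; exact permutation p = 0.25). Flanks were not limited to introns. For the 241 members at 501 to 1000 bp, 1 flank centre lay within 500 bp of the start, in promoter sequence. The part of this in the G+C and motif differences from flanks was not tested.

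**Figure D4:**
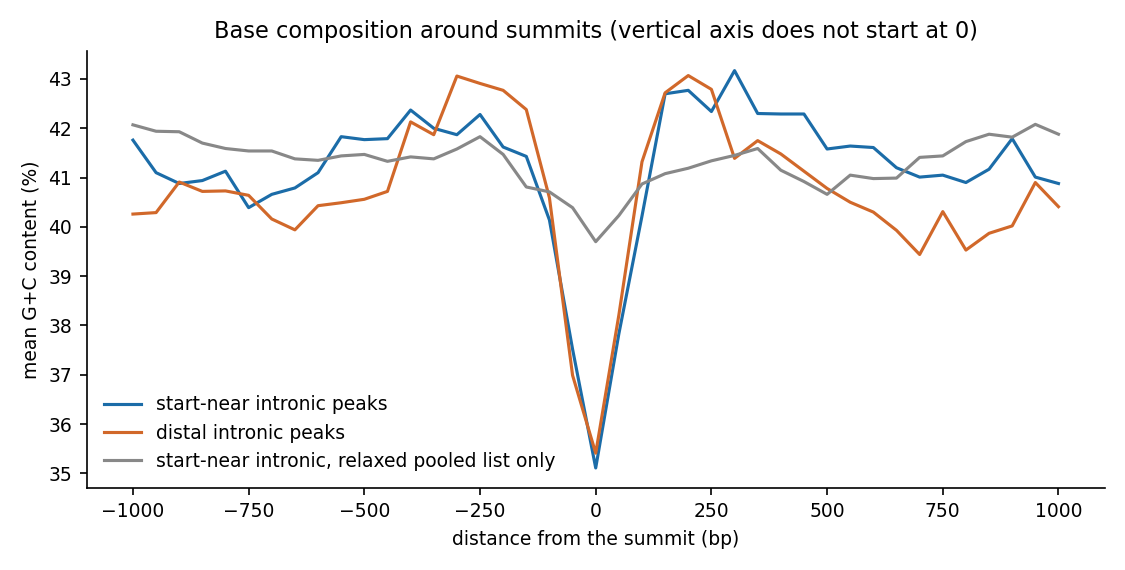
Mean G+C content (vertical axis, %, not starting at 0) in 51 bp windows every 50 bp by distance from the summit (horizontal axis, bp), for start-near intronic peaks, distal intronic peaks and start-near intronic peaks of the relaxed pooled list that did not overlap an optimal peak. Both optimal classes dip to 35.11 and 35.41% at the summit, and the relaxed-only peaks to 39.7%.

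The homeodomain core TAATTA was present within 100 bp of 94 summits (18.18%) against 11.8% of flanks, a ratio of 1.541. It stood at 16.59% of distal intronic, 18.32% of promoter and 13.47% of relaxed-only start-near summits. In the replicates' own start-near intronic lists it was at 15.19, 14.65 and 18.11% of summits and 12.13, 12.3 and 10.93% of flanks in replicates 1, 2 and 3. Summits were higher in 3 of 3, by 4.195 ± 2.614 points (SD, n = 3; exact permutation p = 0.25, adjusted p = 0.3846 over 20 motifs). Members with TAATTA had a median signal value of 188.3 and those without it 199.4. The longer TTAATTA, which contains the core, gave a ratio of 1.476.

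Sequences of A and T only showed differences at least as large as that of the core. AATATT was at 26.89% of summits against 15.38% of flanks, TATATA at 18.38 against 10.64% and TTTAAA at 26.5 against 17.89%. In the replicates' lists AATATT was higher at summits by 12.91 ± 1.386 points (SD, n = 3; exact permutation p = 0.25, adjusted p = 0.3846). The part of base composition in the TAATTA difference was not tested.

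The forkhead site TGTTTAC had the largest ratio to flanks of the 20 motifs. It was at 10.44% of summits and 5.513% of flanks, a ratio of 1.895, and at 13.39% of distal intronic, 8.469% of promoter and 8.013% of relaxed-only summits. In replicates 1, 2 and 3 it was at 10.85, 11.72 and 9.843% of summits and 4.734, 4.98 and 6.496% of flanks. The difference of 5.4 ± 1.805 points was positive in 3 of 3 (SD, n = 3; exact permutation p = 0.25, adjusted p = 0.3846). The E-box CATATG, a site of helix-loop-helix factors, was at 11.61% against 7.35% (ratio 1.579) and at 6.939% of promoter summits. The GATA site GATAAG was at 14.51% against 10.35%, but relaxed-only summits had it as often, at 14.7%.

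Some motifs were scarcer at summits than in the flanks 500 bp away. GAGAGAG, the site of the GAGA factor, was at 5.996% against 9.284% of flanks 500 bp away and 6.963% of flanks 1000 bp away (5.566 to 8.679%), and at 4.509% of relaxed-only start-near summits (3.868 to 5.25%). Against the nearer flanks it was lower in 3 of 3 replicates by a mean of -1.968 ± 2.056 points, of which replicate 3 gave -4.331. AAGGTCA, a nuclear receptor site, was at 0.5803% against 1.934%, and at 2.412% of relaxed-only summits, with -1.277 ± 0.3385 points over the replicates. The core promoter element TATCGATA (DRE) was at 0.1934% of start-near intronic summits and 6.276% of promoter summits. Motif 1 (GGTCACACT) was at 0 of 517 summits, which allows a share of up to 0.5803% by a limit of 3 counts and of 0.7375% by the Wilson interval, and at 2.5% of promoter summits. Of the 20 motifs, 8 were higher at summits in 3 of 3 replicates, 5 lower in 3 of 3, and 7 neither.

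**Figure D5:**
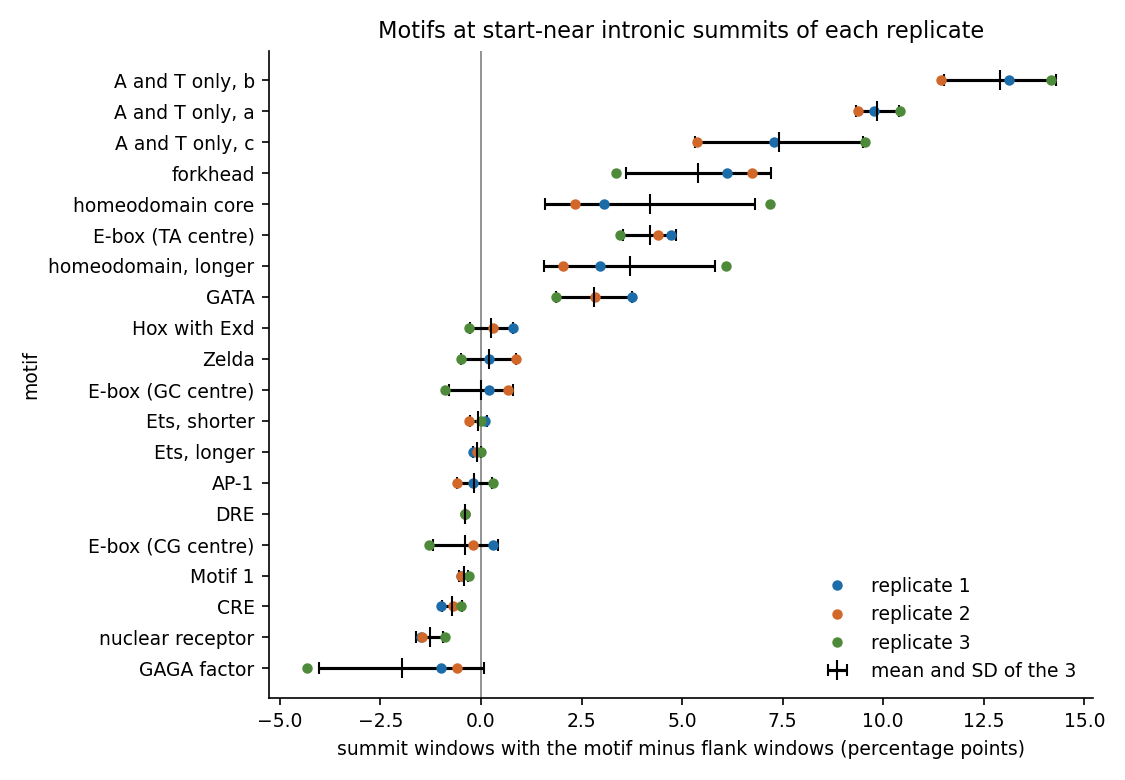
Share of windows (100 bp to each side) with a motif at the start-near intronic summits of each replicate's own list minus the share in flanks 500 bp away (horizontal axis, percentage points), 1 point per replicate with the mean and SD of the 3 in black, for 20 motifs (vertical axis). The 8 motifs at the top have all 3 points above 0, led by the A and T only sequences and the forkhead site at 5.4 points, and the GAGA factor site is lowest at -1.968.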

How the data were processed

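Peak lists of anti-GFP ChIP-seq were analysed in the dm6 build: the optimal list, the relaxed pooled list and the relaxed list of each of 3 biological replicates. The signal values are those of the authors' deposited peak lists; per the deposited notes, replicate lists were called against a control and the optimal list was made from the relaxed lists by the irreproducible discovery rate. The signal scale is not stated, depth is unknown, and no source used here names the peak caller, its version or the threshold. Lists in dm3 were not used here, and no coordinate was converted between builds.

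Summits (1-based) were classed with Ensembl release 115 gene models (BDGP6.54) on 6 chromosome arms, in the order promoter (within 500 bp of a protein-coding start), exon of any gene, intron and intergenic. Replicate lists were limited to their 3688 highest peaks, and overlap meant at least 1 bp. Genome sequence was RefSeq release 6. Motifs, on both strands, were sought within 100 bp of summits and of flank centres 500 bp to each side. All flanks were kept, whether or not they lay in introns. The homeodomain motifs were TAATTA and the longer TTAATTA, which contains it, and TGATNNAT was the Hox site with Exd. The GAGA factor was represented by GAGAGAG, DRE by TATCGATA and Motif 1 by GGTCACACT. The E-boxes were CAGCTG besides CATATG and also CACGTG. AP-1 had TGACTCA, CRE had TGACGTCA, GATA factors had GATAAG, nuclear receptors had AAGGTCA, forkhead factors had TGTTTAC and Zelda had CAGGTAG, while Ets factors had ACAGGAAGT as well as CCGGAAGT. Sequences of only A and T were TTTAAA besides AATATT and also TATATA. Overlapping matches of different motifs were counted for each.

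Values of the 3 libraries were compared by 2-sided exact sign-flip permutation tests, whose smallest p is 0.25, so no comparison could pass 0.05. P-values were adjusted by Benjamini-Hochberg over 5 planned tests and over 20 motifs. A further 9 comparisons (density, first introns, promoter peaks, G+C, side of the start and chromosome X) were added after the values were seen and have an adjusted p of 0.25 each. The comparison of motifs in the separate replicates was also added then. The labels do not say how collections were separated, so these p-values measure only the spread between libraries. Peaks were not resampled. The rule, the members, the 20 gene lists (637 genes, 10 matched by synonym, 5 not matched) and the tests were chosen with earlier results of these data known. Named genes are those of the 15 highest members, of genes with 3 or more members, of the highest members in each list, at the distance limits, without replicate support and with the widest replicate ranks. One of the gene lists and one gene at a distance limit are not reported here. Other list members were named after their values were seen. Scripts used Python 3.11.15, numpy 2.4.6, pandas 2.3.3 and matplotlib 3.10.9, and were tested on simulated data. Alternatives are given in the closing section.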

Additional observations from a re-analysis of the deposited data

How the results depend on the processing

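All comparisons were made within each replicate library. With 1 group there are no groups for a replicate block to pair. Of 50 alternatives to the 5 planned comparisons, 47 kept the direction; none could pass the threshold in either form. With the whole relaxed lists, support of start-near intronic minus promoter peaks went from -1.482 to 1.076 points, and support with minus without a promoter peak at the gene from 2.457 to -1.07. The latter was -0.4702 to 6.26 when 1 replicate was left out, negative without replicate 2. The number of peaks was 276 for summits over 1000 bp from the start, 247 among the 1844 highest optimal peaks, and 308 to 381 as those supported by both replicates left when 1 was left out. Counting protein-coding exons only gave 523. The share supported by all 3 replicates was 85.11% with whole lists and 84.21% among the 1844 highest, and 59.57 to 73.69% over the 2 replicates left. The share of relaxed pooled peaks overlapping an optimal peak was 15.08% over 1000 bp. The share with a promoter peak was 41.01% at any start of the gene and 17.41% among the 1844 highest. The ratio of density to distal introns was 3.36 at 501 to 1500 bp, 2.664 over 1000 bp and 1.825 in the relaxed pooled list. The cause of these shifts was not tested. The 50 include signal medians with absent peaks placed lowest, added after the data were seen. Leaving out 1 replicate, also added then, gave 5.634 to 8.864 points for upstream minus downstream support and 2.73 to 2.998 for the density ratio of the replicate lists. Depth was unknown, so the limit it sets on any peak is unknown.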
